A study of Mus musculus with 27 samples.

Results

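The genes described here are 10 transcripts of the unfolded protein response and the integrated stress response, namely Atf4, Ddit3, Hspa5, Hsp90b1, Xbp1, Trib3, Asns, Chac1, Sesn2 and Herpud1. They were chosen by symbol, and all 10 are present among the 24293 gene symbols of each RNA table. RNA was sequenced from 15 libraries of C57BL/6 wild-type mouse cells, prepared from cortex at postnatal day 1, in 5 groups of 3. Control microglia and microglia transduced with ND1 were each sampled on day 2 and on day 7. The fifth group is neurons cultured from cortex, with no day in the label. Per the labels' protocols, ND1 was delivered by lentivirus together with a second lentivirus for M2rtTA, a doxycycline-dependent activator. The transduced cells then received a Neurobasal medium with B27, BDNF, GDNF and NT3 and a single addition of doxycycline, and the neurons were kept in Neurobasal with B27. What ND1 stands for is not written out in the labels, nor is the medium or any virus of the control cells, so ND1 effects cannot be told apart from effects of medium, virus or doxycycline. Whether replicates are separate cultures is not stated, so p-values measure only the spread between these samples.

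The unfolded protein response is started by sensors in the membrane of the endoplasmic reticulum (ER) when unfolded proteins accumulate in its lumen. One sensor, PERK, phosphorylates the translation factor eIF2, as do other kinases that respond to missing amino acids, viral RNA or lack of heme, and these inputs together are called the integrated stress response. Phosphorylated eIF2 lowers protein synthesis in general but raises translation of ATF4, a transcription factor that induces genes of amino acid supply and, with prolonged stress, of cell death. The sensors IRE1 and ATF6 act on genes of ER folding and degradation, IRE1 by splicing Xbp1 mRNA. The tables measure RNA abundance, not eIF2 phosphorylation, ATF4 translation or Xbp1 splicing.

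Promoter letters are shown for the members whose RefSeq promoter window (GRCm38.p6, the assembly of mm10, 250 bases before to 50 bases after the start site) holds a known stress element before the start site. The elements are known from the response, but a match in the letters does not show which branch acts on a member. Capitals mark the elements, and each line reads 5′ to 3′ on the strand of its gene.
Hspa5, chr2:34772010-34772058, plus strand: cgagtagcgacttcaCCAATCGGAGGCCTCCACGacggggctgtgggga
Hsp90b1, chr10:86705518-86705671, minus strand: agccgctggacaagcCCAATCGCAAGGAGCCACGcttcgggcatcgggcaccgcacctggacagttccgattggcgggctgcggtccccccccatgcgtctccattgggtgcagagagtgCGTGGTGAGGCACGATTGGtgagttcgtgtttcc
Herpud1, chr8:94386302-94386402, plus strand: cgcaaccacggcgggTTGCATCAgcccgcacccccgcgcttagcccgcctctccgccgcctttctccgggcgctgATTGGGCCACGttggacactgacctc
Asns, chr6:7693210-7693247, minus strand: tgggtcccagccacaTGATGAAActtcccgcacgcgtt
Chac1, chr2:119351034-119351071, plus strand: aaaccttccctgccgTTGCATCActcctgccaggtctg

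The ER stress response element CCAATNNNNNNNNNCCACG, searched on both strands, was present in 0.119% of 32851 mouse promoter windows and in those of Hspa5 and Hsp90b1. Hspa5 holds 1 copy, at -65 to -47 from the start site, and Hsp90b1 holds a copy on each strand. The shorter element II, ATTGGNCCACG, was present in 0.0365% of windows and in that of Herpud1. The core of the C/EBP-ATF response element, TGATGNAA, which ATF4 dimers are known to bind, was present in 3.97% of windows and in those of Trib3, Asns, Chac1 and Herpud1. In Trib3 it lies after the start site, at 15 to 22, and is not printed. An XBP1-type element, TGACGTGG (0.676% of windows), was in none of the 10 members' windows. A match describes letters, not a bound site, and elements outside these windows were not searched.

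FPKM sums ranged from 429013 to 739846 per library, and each library had 10709 to 12092 genes of at least 1 FPKM. The FPKM sums were lower in ND1 day 7 and neuron libraries than in the others. The tables hold no read counts. The worth of 1 read, taken from the spacing of low values and set against control day 2 replicate 1, lay between 0.728 and 1.13, with lower values for deeper libraries. Neurod1 stood at 3073 to 3454 FPKM in ND1 day 2 libraries, 32.5 to 36.7 in ND1 day 7, 6.38 to 6.79 in neurons and 1.04 to 2.16 in control libraries. The summed level of 10 microglia markers was 8151 to 8662 FPKM in control day 2, 12070 to 12550 in control day 7, 6323 to 6865 in ND1 day 2, 489 to 673 in ND1 day 7 and 11.4 to 13.7 in neuron libraries. That of 10 neuronal markers was 27.4 to 31.9, 24.2 to 32.6, 773 to 962, 4799 to 4803 and 3675 to 3972 FPKM in the same order. Among 6 astrocyte markers the summed level was highest in control day 7, at 61.5 to 65.9 FPKM, against 16.8 to 25.4 elsewhere. Summed fibroblast and mural markers (6 genes) reached 25.5 to 34.8 FPKM in control day 7 and 33.0 to 36.7 in ND1 day 7 libraries, against 1.18 to 8.88 in the other groups. Of 6 oligodendrocyte lineage markers the sum was 36.6 to 68.7 FPKM in control and ND1 day 2 libraries, mostly from Cnp, with Mog at 0 in control day 7. That of 5 endothelial markers was at most 17.5, mostly from Kdr, with Cldn5 at 0 in control libraries. In these bulk samples, fewer cells of a type and less RNA per cell cannot be told apart. The part of cell composition in the results below was not tested.

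Of the transcription factor genes, Ddit3 and Atf4 were abundant in control day 2 microglia and Xbp1 was lower. Ddit3 (chromosome 10, 127290793 to 127296291, mm10) encodes CHOP, a factor known to promote cell death under long ER stress. It stood at 788, 774 and 809 FPKM in control day 2 libraries, and at 251, 243 and 243 in control day 7. ND1 libraries gave 586, 606 and 622 FPKM at day 2 but 36.1, 28.6 and 32.4 at day 7. The neuron libraries, at 61.2, 68.0 and 71.0 FPKM, lay above ND1 day 7 and below every other group, and no groups overlapped. The highest group mean of Ddit3 was 24.4 times the lowest.

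Atf4 (chromosome 15, 80255184 to 80257545), which encodes the central transcription factor of the integrated stress response, varied less. Its levels were 318, 304 and 321 FPKM in control day 2, 193, 185 and 183 in control day 7, and 331, 354 and 362 in neurons. ND1 libraries held 246, 243 and 243 FPKM at day 2 and 117, 111 and 118 at day 7. Neurons were therefore highest for Atf4 and ND1 day 7 cells lowest, again without overlap between any groups. Xbp1 (chromosome 11, 5520641 to 5525993), whose spliced mRNA encodes the factor downstream of IRE1, was at 65.0, 65.1 and 65.8 FPKM in control day 2 and 68.7, 67.5 and 69.5 in control day 7. It was lower in ND1 libraries, with 43.9, 44.1 and 44.5 FPKM at day 2 and 51.4, 51.1 and 52.7 at day 7, and highest in neurons, with 80.5, 83.6 and 90.3. The Xbp1 groups did not overlap either, but the span from lowest to highest mean was only 1.92 times.

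The ER-resident members are the chaperones Hspa5 and Hsp90b1 and the membrane protein Herpud1. Hspa5 (chromosome 2, 34772090 to 34776529) encodes BiP, the Hsp70 of the ER lumen, which also holds the sensors inactive. It stood at 320, 332 and 325 FPKM in control day 2, 259, 238 and 250 in control day 7, and 358, 361 and 367 in neurons. In ND1 libraries it was at 216, 221 and 218 FPKM at day 2 and 122, 122 and 120 at day 7. The ND1 day 7 libraries were the lowest and no groups overlapped. Hsp90b1 (chromosome 10, 86690841 to 86705444), the Hsp90 of the ER, was the steadiest member, with a highest mean 1.74 times the lowest. Its levels were 145, 149 and 144 FPKM in control day 2 and 162, 145 and 157 in control day 7, and these groups overlapped. In ND1 libraries Hsp90b1 was at 118, 121 and 121 FPKM at day 2 and 119, 121 and 120 at day 7, again with overlap, while neurons gave 217, 205 and 203. Herpud1 (chromosome 8, 94386429 to 94395371) encodes a membrane protein of the degradation machinery of the ER. It was at 24.3, 24.0 and 25.4 FPKM in control day 2, 31.2, 27.6 and 30.8 in control day 7, and 22.3, 23.8 and 25.3 in ND1 day 2. ND1 day 7 libraries held 19.5, 17.8 and 17.4 FPKM of Herpud1 and neurons 75.3, 79.6 and 78.1. Only the control and ND1 day 2 groups overlapped for Herpud1.

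The remaining members are known targets of ATF4. Trib3 (chromosome 2, 152337425 to 152344060) encodes a pseudokinase that restrains ATF4 and AKT signalling. It was at 73.2, 66.3 and 74.6 FPKM in control day 2 and at 5.87, 5.30 and 6.16 in control day 7. ND1 libraries held 37.3, 37.4 and 39.8 FPKM at day 2 and 1.10, 0.978 and 1.07 at day 7, and neurons 4.21, 5.38 and 4.86. Trib3 had the widest span of the 10 genes, 68.0 times from lowest to highest mean, and its neuron and control day 7 levels overlapped. Sesn2 (chromosome 4, 132492804 to 132510456) encodes a leucine-binding inhibitor of mTORC1 signalling. It was at 45.1, 41.9 and 43.4 FPKM in control day 2, 16.4, 19.8 and 19.7 in control day 7, and 28.4, 30.2 and 31.1 in ND1 day 2. ND1 day 7 libraries, at 4.05, 4.11 and 3.95 FPKM, were far below all others for Sesn2, while neurons, at 45.4, 46.7 and 42.3, overlapped with control day 2.

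Asns and Chac1 had another order, with control day 7 lowest. Asns (chromosome 6, 7675165 to 7693209) encodes asparagine synthetase. It was at 65.1, 61.9 and 66.3 FPKM in control day 2, 15.9, 14.3 and 14.9 in control day 7, and 51.7, 48.1 and 48.97 in ND1 day 2. ND1 day 7 libraries held 57.4, 56.7 and 57.5 FPKM of Asns and neurons 167, 174 and 184. Chac1 (chromosome 2, 119351242 to 119354326), which encodes an enzyme that degrades glutathione, was at 13.9, 12.4 and 13.1 FPKM in control day 2 and 1.18, 0.658 and 0.881 in control day 7. It stood at 10.9, 10.5 and 11.5 FPKM in ND1 day 2, 3.87, 4.10 and 3.52 in ND1 day 7, and 51.5, 59.4 and 54.4 in neurons. Neither gene had overlapping groups.

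**Figure D1:**
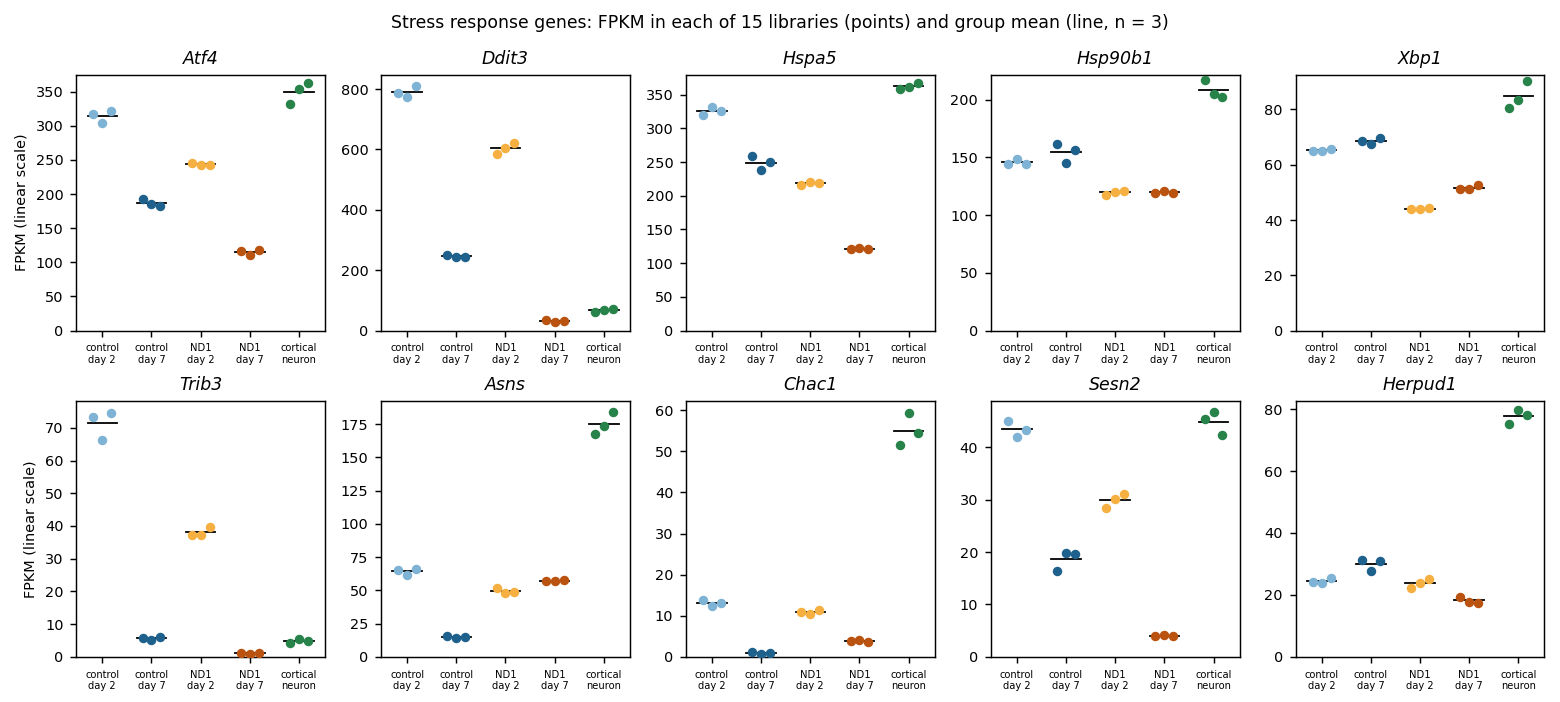
FPKM (linear scale from 0, y axis) of the 10 stress response genes in the 15 libraries by group (x axis); points are libraries and lines the group means (n = 3). Neurons are highest for 8 genes and control day 2 for Ddit3 and Trib3, while ND1 day 7 is lowest for 6 genes.

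Neurons had the highest mean for 8 of the 10 genes, against 28.0% of the 13602 tested genes, and control day 2 for Ddit3 and Trib3, against 23.1%. None was highest in control day 7, ND1 day 2 or ND1 day 7 (22.3, 4.25 and 22.4%). The lowest mean fell in ND1 day 7 for 6 of 10 (Atf4, Ddit3, Hspa5, Trib3, Sesn2 and Herpud1), against 15.5% of tested genes. It fell in control day 7 for Asns and Chac1 (21.0% of tested genes) and in ND1 day 2 for Hsp90b1 and Xbp1 (7.51%). None of the members was lowest in control day 2 or neurons (24.7 and 31.2% of tested genes). ND1 day 7 means lay below those of both control day 7 microglia and neurons for 8 of 10 members, against 18.9% of tested genes. Only Asns and Chac1 lay between these groups. These orders are of FPKM as deposited and were not counted again under other scaling. With equal FPKM sums, Hsp90b1 (log2 change 0.29) and Xbp1 (0.25) in ND1 day 7 were above control day 7. Herpud1 in ND1 day 7 was then above ND1 day 2 (0.04).

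Tests used limma on log2(FPKM + 1) over the 13602 genes that reached 1 FPKM in 3 or more libraries. The call rule asked for an adjusted p (Benjamini-Hochberg) below 0.05 and a log2 change of 1 or more in either direction, and all 10 members passed the expression filter. In a comparison of control microglia between days 7 and 2, 5 members fell and 0 rose. Culture time and cell composition cannot be told apart in this comparison. Trib3 fell by 3.42 on the log2 scale (SE 0.07, limma adjusted p = 4.23e-13), and Chac1 fell by 2.90 (SE 0.09, limma adjusted p = 1.01e-11). Changes of Asns (-2.03, SE 0.05), Ddit3 (-1.68, SE 0.07) and Sesn2 (-1.18, SE 0.06) also passed, with limma adjusted p up to 2.13e-09. Of all tested genes 3.79% fell and 3.9% rose. Without the fold threshold, 7 members were lower and 1, Herpud1, was higher, against 32.0% and 33.8% of tested genes. In FPKM, control day 7 held 8.10% of the day 2 level of Trib3, 6.91% of that of Chac1, 23.3% of Asns, 31.1% of Ddit3 and 42.9% of Sesn2. The ER-resident members did not pass, with log2 changes of -0.38 for Hspa5, 0.08 for Hsp90b1 and 0.27 for Herpud1, nor did Atf4 (-0.75) or Xbp1 (0.07). The median change was -0.96 over the members and 0.01 over all tested genes. Astrocyte and fibroblast markers were higher at day 7 in the same libraries, as given above.

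**Figure D2:**
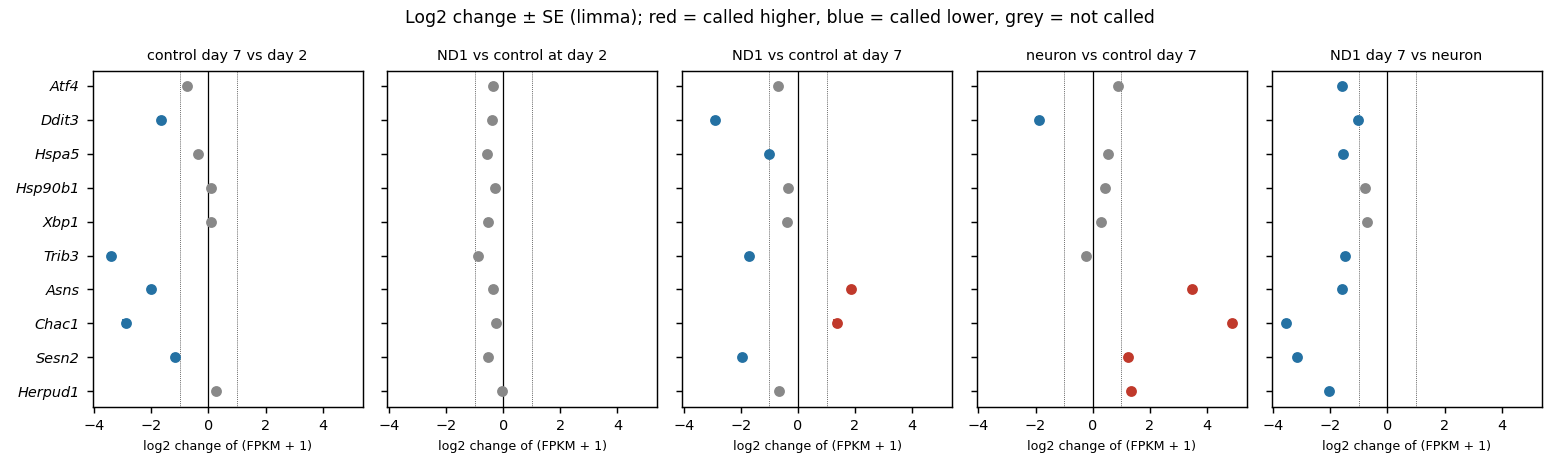
Log2 change of (FPKM + 1) with its SE (x axis; dotted lines mark a change of 1) for each gene (y axis) in 5 comparisons; red and blue points passed the call rule as higher and lower, grey points did not. Control cells between days lost Trib3, Chac1, Asns, Ddit3 and Sesn2, and ND1 day 7 cells were below neurons for 8 genes.

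At day 2, ND1-transduced cells were compared with control microglia of the same day to describe the early difference between these groups. No member passed the call rule in either direction, against 9.09% of tested genes called higher and 0.618% called lower. Every member's log2 change was below 0 in this fit, from -0.88 for Trib3 (SE 0.07) to -0.05 for Herpud1 (SE 0.06), which turned above 0 under quantile normalization (0.04), equal FPKM sums (0.12) and the removal of an ND1 day 7 share (0.02). Without the fold threshold, 9 of 10 members had limma adjusted p under 0.05, at most 0.0267 for Chac1, all of them lower, against 36.3% of tested genes lower and 31.6% higher. The ER chaperone Hspa5 was at -0.57 (SE 0.04, limma adjusted p = 7.1e-09), Xbp1 at -0.55 (SE 0.04) and Sesn2 at -0.53 (SE 0.06). Atf4 and Asns were at -0.37, Ddit3 at -0.39, Hsp90b1 at -0.28 and Chac1 at -0.24. The members' median of -0.38 stood beside -0.04 over all genes.

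The ND1 day 2 libraries stood apart in one respect that touches this comparison. For 670 neuron-high genes, the increase over control day 2 was a near-constant share of the increase seen in ND1 day 7 cells. The median share was 17.1%, and the 5th and 95th percentiles were 15 and 18.9%. Those genes were chosen as high in neurons and low in control day 7, so their even share is no measure for the stress response genes. The spread of this measure over all tested genes was not taken. On the same measure, the way from the control day 2 mean to the ND1 day 7 mean, Herpud1 had gone 12.2%, Chac1 23.5%, Ddit3 24.5%, Sesn2 34.5%, Atf4 35.4%, Trib3 47.2% and Hspa5 52.5%. Hsp90b1, Xbp1 and Asns had gone 100.4%, 155% and 206%, so their ND1 day 2 means lay below those of both other groups (119.8, 44.2 and 49.6 FPKM). Such a position, below both, was found for 3 of 10 members and for 15% of tested genes. The ND1 day 2 levels overlapped with ND1 day 7 for Hsp90b1 and with control day 2 for Herpud1. The end points were close for Asns (64.4 and 57.2 FPKM) and Herpud1 (24.6 and 18.2). They were also close for Xbp1 (65.3 and 51.7) and Hsp90b1 (146 and 119.9). Small differences weigh heavily in the percentages of these genes. With the 17.1% share of the ND1 day 7 mean subtracted and the rest rescaled, ND1 day 2 means became 722 FPKM for Ddit3, 45.8 for Trib3, 238 for Hspa5, 42.6 for Xbp1 and 48.0 for Asns, and 0 members passed in either direction.

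**Figure D3:**
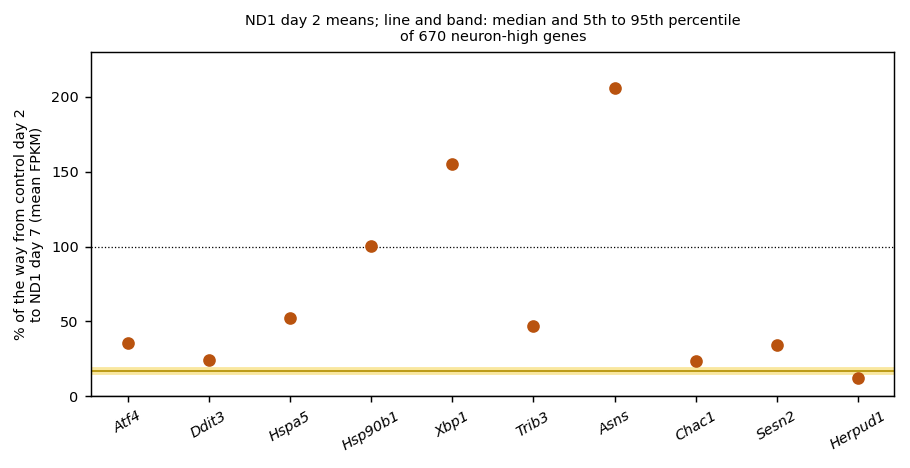
Position of the ND1 day 2 mean of each gene (x axis) in percent of the way from the control day 2 mean to the ND1 day 7 mean of FPKM (y axis); the line and band are the median and the 5th to 95th percentile of 670 neuron-high genes. Herpud1 lies below the band, the other 9 genes above it, and Hsp90b1 (100.4), Xbp1 and Asns past 100. The band is the spread of those 670 genes, not the error of a member's position. Those genes were chosen as high in neurons, so the band is no measure for the members.

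At day 7, the comparison of ND1 cells with control microglia asked how far the cells differed once neuronal genes were high. In ND1 cells 4 of 10 members, Ddit3, Sesn2, Trib3 and Hspa5, were called lower than in control cells, against 24.5% of tested genes. Called higher were 2 of 10, Asns and Chac1, near the 25.7% of tested genes. Ddit3 fell by 2.89 on the log2 scale (SE 0.07, limma adjusted p = 2.63e-14), to 13.2% of its control level in FPKM. Sesn2 fell by 1.96 (SE 0.06, limma adjusted p = 6.51e-13) and Trib3 fell by 1.72 (SE 0.07, limma adjusted p = 1.18e-11). Hspa5 fell by 1.03 (SE 0.04, limma adjusted p = 1.31e-12). It did not pass under quantile normalization (-0.67) or equal FPKM sums (-0.38). Equal sums moved the median of all genes to 0.62 from 0.04, and Hspa5 stayed below that median. Asns was higher than control by 1.86 (SE 0.05, limma adjusted p = 2.8e-14), a 3.82-fold higher FPKM mean. Chac1 was higher than control by 1.35 (SE 0.09, limma adjusted p = 2.28e-09), a 4.23-fold higher mean at a low level. The difference of Chac1 was 0.95 after quantile normalization and then did not pass. Atf4 (-0.70), Herpud1 (-0.68), Xbp1 (-0.40) and Hsp90b1 (-0.36) did not pass. The latter pair turned above 0 with equal FPKM sums, to 0.25 and 0.29, and Hsp90b1 was at 0.00 after quantile normalization. With no fold threshold 8 members were lower and 2 higher, against 44.2% and 46.5% of tested genes. The members' median was -0.69, beside 0.04 over all genes.

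The levels of the members that fell were also set beside those of genes low in neurons. For 307 genes high in control day 7 microglia and low in neurons, ND1 day 7 libraries stood at a median of 5.15% of the control day 7 level (quartiles 4.37 and 6.11%). Ddit3 at 13.2%, Trib3 at 18.2%, Sesn2 at 21.6% and Hspa5 at 48.7% were above that range. In neurons these members stood at 27.2%, 83.4%, 240% and 145% of control day 7, in the same order. The 307 genes were chosen for 1% or less there, so the range is no measure for these members. How much microglial RNA remained was not tested.

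The ND1 effect was set against itself between the days with an interaction term. Ddit3 (-2.51, SE 0.10, limma adjusted p = 2.24e-11) and Sesn2 (-1.43, SE 0.09, limma adjusted p = 2.61e-09) had a lower effect at day 7, against 20.8% of tested genes. Asns (2.24, SE 0.07, limma adjusted p = 1.32e-12) and Chac1 (1.59, SE 0.13, limma adjusted p = 2.97e-08) had a higher one, against 20.5%. Without the fold threshold 6 members had a lower and 3 a higher effect, against 39.2% and 46.3% of tested genes. Both genes of the latter pair fell in control cells between the days, while in ND1 cells Chac1 fell and Asns did not pass (0.20). Asns in control cells went from a mean of 64.4 to 14.99 FPKM and in ND1 cells from 49.6 to 57.2 FPKM. Chac1 went from 13.1 to 0.907 FPKM in control and from 10.9 to 3.83 in ND1 cells. Trib3 was at -0.84 (SE 0.10) and did not pass, but passed with a pseudocount of 0.1 (-1.45), after quantile normalization (-1.39) and with the ND1 day 7 share removed (-1.10). Within ND1 cells, 5 members fell between the days and 0 rose, against 21.1% and 22.6% of tested genes. These were Trib3 (-4.26, SE 0.07), Ddit3 (-4.19, SE 0.07), Sesn2 (-2.62, SE 0.06), Chac1 (-1.31, SE 0.09) and Atf4 (-1.08, SE 0.04), with limma adjusted p up to 3.69e-09. Without the fold threshold 7 members were lower and 2, Xbp1 and Asns, higher, against 41.1% and 48.5% of tested genes. Atf4 did not pass after quantile normalization (-0.77) or with equal FPKM sums (-0.66).

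Cortical neurons were compared with control day 7 microglia to place the stress genes in each cell type. Chac1 was higher by 4.88 on the log2 scale (SE 0.09, limma adjusted p = 8.46e-16) and Asns by 3.46 (SE 0.05, limma adjusted p = 3.93e-17). Herpud1 (1.35, SE 0.06) and Sesn2 (1.22, SE 0.06) were also higher, so that 4 members were called higher, against 28.1% of tested genes. Ddit3 was lower by a log2 change of -1.87 (SE 0.07, limma adjusted p = 3.23e-12), the only member called lower, against 25.3%. By adjusted p alone 8 members were higher and 2 lower, against 47.3% and 43.7% of tested genes. Atf4 (0.90), Hspa5 (0.54), Hsp90b1 (0.43) and Xbp1 (0.30) did not pass. With equal FPKM sums Atf4 (1.54), Hspa5 (1.18) and Hsp90b1 (1.07) passed as well, while the median of all genes moved from 0.06 to 0.64. Trib3 was at -0.22, and at 0.34 with equal FPKM sums. Set beside control day 2, which was not tested against neurons, the neuron means were 1.11 times as high for Atf4 and Hspa5 and 1.03 times for Sesn2. They were 4.19 times for Chac1, 2.72 times for Asns and 3.16 times for Herpud1, but 8.44% for Ddit3 and 6.75% for Trib3.

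ND1 day 7 cells were set against neurons to ask how alike the transduced cells were to cultured neurons. Here 8 of 10 members were lower in ND1 cells and 0 higher, against 6.24% and 7.29% of tested genes. By adjusted p alone all 10 were lower, against 33.6% of tested genes lower and 41.5% higher. Chac1 had a log2 difference of -3.54 (SE 0.09, limma adjusted p = 4.36e-13), Sesn2 of -3.18 (SE 0.06, limma adjusted p = 6.29e-14) and Herpud1 of -2.03 (SE 0.06, limma adjusted p = 1.21e-12). Asns (-1.60), Atf4 (-1.59), Hspa5 (-1.57) and Trib3 (-1.5) followed, with SE of 0.04 to 0.07. Ddit3 was at -1.02 (SE 0.07, limma adjusted p = 1.34e-08). It passed narrowly: the difference was -0.94 without ND1 day 7 replicate 2 and -0.98 without neuron replicate 3, and it did not pass in either case, nor after quantile normalization. Hsp90b1 (-0.79) and Xbp1 (-0.70) were below neurons by less than the threshold. In FPKM, ND1 day 7 cells held 6.96% of the neuron level of Chac1, 9.01% of Sesn2, 23.5% of Herpud1 and 32.7 to 33.5% of Asns, Atf4 and Hspa5. The members' median was -1.58 and that of all genes 0.06, and FPKM sums of these groups were close (429013 to 483402). The day of the neuron cultures is not given, and their medium lacked the growth factors of the ND1 cells.

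Other genes of the pathway were taken from 7 further lists. Of 26 tested ATF4 pathway targets outside the members, 12 fell and 0 rose between days 2 and 7 in control microglia, against 3.79% and 3.9% of tested genes, with a median of -0.86. At an unadjusted limma p under 0.05 there were 23 lower and 0 higher, against 33.4% and 35% of tested genes. Slc7a11, the cystine importer gene, fell by 2.45 (SE 0.08, limma adjusted p = 1.1e-11) and Slc7a5, a leucine transporter gene, fell by 2.26 (SE 0.05, limma adjusted p = 1.01e-12), from 19.8 to 3.35 FPKM. Of 13 aminoacyl-tRNA synthetase and export genes 4 fell and 0 rose, led by Aars (-1.20) and Cars (-1.17), and all 13 were lower at an unadjusted limma p under 0.05. In the ER lists over the same days, 1 of 20 further chaperone and folding genes fell, Ero1l (-1.16), an oxidase of the ER, and 0 of 19 degradation and translocon genes passed, with 5 higher and 11 lower at an unadjusted limma p under 0.05. Among 20 genes of sensors and eIF2 control the only call was a fall of Ppp1r15a (-1.70), which encodes GADD34, a subunit that directs dephosphorylation of eIF2. Of 16 cytosolic and mitochondrial heat shock genes, Hspb1 (2.37) rose, and Lonp1 (-1.23) and Hspa9 (-1.02), both mitochondrial, fell. Hspa9 did not pass after quantile normalization (-0.85), after median of ratios scaling or without control day 7 replicate 2 (-0.99 in both).

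In ND1 cells against control at day 7 7 of 26 ATF4 targets were higher and 7 lower, near the 25.7% and 24.5% of all tested genes, with a median of 0.06. Ddit4, an mTORC1 inhibitor gene, rose by 3.41 (SE 0.08) and Vldlr, a lipoprotein receptor gene that also serves reelin in neurons, rose by 3.34 (SE 0.06). Atf3, a stress-induced transcription factor gene, fell by 4.15 (SE 0.07, limma adjusted p = 1.15e-15), from 196 to 10.1 FPKM, and Nupr1, a stress-induced chromatin protein gene, fell by 3.49 (SE 0.05), from 107 to 8.60 FPKM. Of the sensors and eIF2 control genes 6 of 20 fell, near the 24.5% of all tested genes, and 0 rose, against 25.7%. Among the falls were Eif2ak2 (-3.33), the kinase PKR that responds to double-stranded RNA, and Atf6 (-2.21). By adjusted p alone 14 of these genes were lower and 6 higher, against 44.2% and 46.5% of tested genes. ER chaperones (6 of 20, with Sil1 at -2.81 and Sdf2l1 at -1.62) and degradation genes (5 of 19, with Edem1 at -2.24 and Derl1 at -1.74) had calls only as lower, in shares near the 24.5% of all tested genes. Their medians were -0.68 and -0.59, beside 0.04 over all genes, which became 0.62 with equal FPKM sums. Of the 13 synthetase genes 2 were higher, Gars (1.45) and Yars (1.42), and 0 lower, against 25.7% and 24.5% of tested genes. By adjusted p alone 8 synthetase genes were higher and 1 lower, against 46.5% and 44.2% of tested genes. Of the heat shock genes 4 of 16 rose, near the 25.7% of all tested genes, with Hsp90aa1 from 109 to 519 FPKM (2.24, SE 0.05) and Hsph1 from 13.2 to 60.1 FPKM (2.10), and Hspb1 fell. At day 2, 2 ATF4 targets rose, Vldlr (2.17) and Ddit4 (1.77), and Phgdh, an enzyme gene of serine synthesis, fell by 1.09, from 50.1 to 23.0 FPKM, against 9.09% of tested genes higher and 0.618% lower. Ddit4 did not pass with the ND1 day 7 share removed (0.75). Phgdh did not pass with that share removed (-0.94), after quantile normalization (-0.96) or with equal FPKM sums (-0.93). At day 2 the lists of sensors, chaperones, degradation genes, synthetases and heat shock genes had 0 calls in limma. At an unadjusted limma p under 0.05 these lists had 11, 14, 12, 12 and 6 genes lower and 1, 1, 0, 0 and 4 higher, against 38% and 32.7% of tested genes.

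Against control day 7, neurons had 13 of 26 ATF4 targets higher and 4 lower, against 28.1% and 25.3% of tested genes, with a median of 0.91. Slc7a3, a cationic amino acid transporter gene, was highest by change (4.77, SE 0.06), followed by Stc2 (4.08, SE 0.06). Nupr1 (-4.64) and Atf3 (-4.44) were lower, as was Ddit3 among the members. Of the 13 synthetase genes 5 were higher and 0 lower, with Yars at 2.10 and Gars at 1.94. Below neurons, ND1 day 7 cells had 14 of 26 ATF4 targets called, and 2 above, Nupr1 (1.15) and Gdf15 (1.03), against 6.24% and 7.29% of tested genes. Gdf15 did not pass after quantile normalization (0.95), nor without ND1 day 7 replicate 1 (0.99), neuron replicate 1 (0.97) or neuron replicate 2 (0.98). Slc7a3 differed most, at 0.978 FPKM in ND1 day 7 and 31.1 in neurons (-4.02, SE 0.06, limma adjusted p = 1.12e-14), and Stc2 next, at 1.19 and 17.8 FPKM. The chaperone list had 5 lower of 20, led by the BiP cofactor gene Dnajb9 (-1.83), from 38.9 FPKM in neurons to 10.3. Of the heat shock genes 0 of 16 differed by the call rule, with 3 higher and 8 lower at an unadjusted limma p under 0.05, against 42.4% and 34.3% of tested genes. Canx, the calnexin gene, is listed at 0 in 1 control day 7 library and at 109.7 and 111.5 FPKM in the other control day 7 libraries, and was not called in any comparison.

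**Figure D4:**
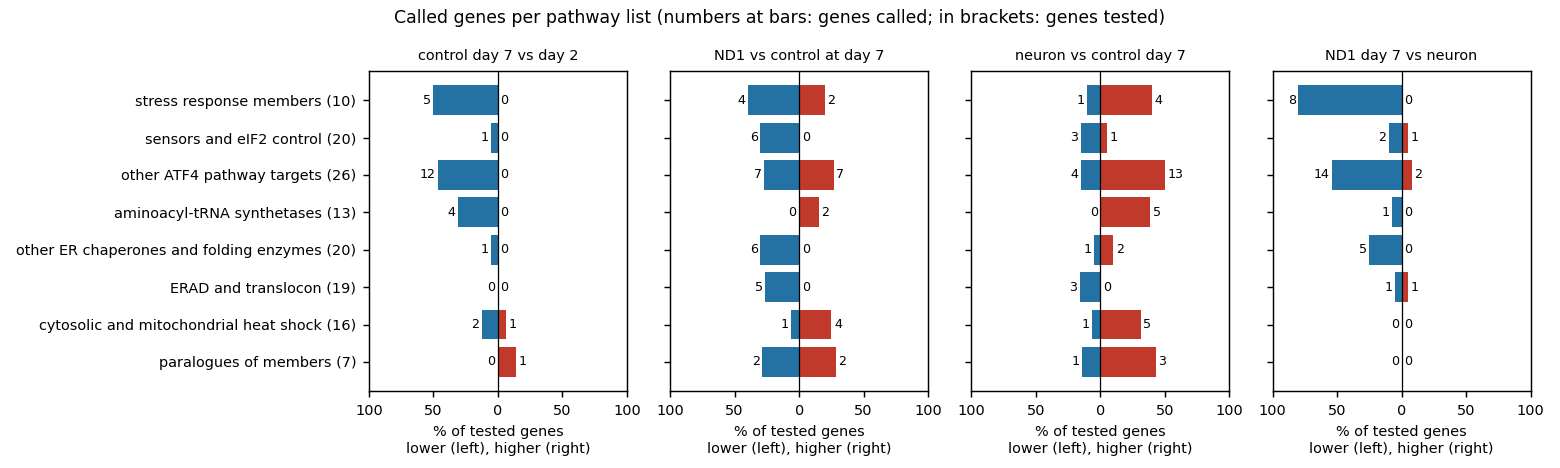
Share of tested genes (x axis, percent) called lower (blue, left) or higher (red, right) in each pathway list (y axis, genes tested in brackets) for 4 comparisons; numbers at the bars are genes. The members and the other ATF4 targets have falls but no rises in control cells between days, and are mostly lower in ND1 day 7 cells than in neurons.

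Several of 7 paralogues of the members passed the call rule. In ND1 cells against control, 2 were higher and 2 lower at day 7, near the 25.7% and 24.5% of all tested genes. At day 2, 2 were higher and 0 lower, against 9.09% and 0.618%. Between control days 1 rose and 0 fell, against 3.9% and 3.79%. Neurons had 3 higher and 1 lower than control day 7, against 28.1% and 25.3%. The ND1 effect at day 7 was higher for 2 and lower for 3, against 20.5% and 20.8%. Trib2, a relative of Trib3, rose in ND1 cells by 4.13 at day 7 (SE 0.07, limma adjusted p = 1.29e-15), from 0.429 to 23.9 FPKM. It had risen by 1.90 at day 2, a change that was -0.16 with the ND1 day 7 share removed. Sesn1, a relative of Sesn2, rose in control cells between the days by 1.45 (SE 0.06), from 16.3 to 46.2 FPKM, where Sesn2 fell. In ND1 cells Sesn1 was higher than control at day 2 (1.18) and lower at day 7 (-1.56), and Sesn3 was higher at day 7 (1.61). Herpud2 was lower at day 7 (-1.36). With equal FPKM sums the day 7 changes of Sesn1 (-0.94) and Herpud2 (-0.75) did not pass. Trib1 had a lower ND1 effect at day 7 than at day 2 (-1.18), which did not pass with equal FPKM sums (-0.80). In neurons against control day 7, Trib2 (3.25) and Sesn3 (2.08) were higher and Sesn1 (-2.0) was lower.

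Across the 15 libraries, the genes most like each member in log2(FPKM + 1) were described by Pearson's r, which here follows mostly the 5 groups. Ddit3 was nearest to Mcoln1 (r = 0.999), with 513 genes at an r of at least 0.95, and Trib3 to Nfkbib (0.996), with 138 such genes. The other members had 6 to 33 such genes. For 3 of the 10 members, the nearest 3 genes held other members or genes of the pathway lists; for the other 7 they did not. Hspa5 was nearest to Vimp, an ER degradation gene now named Selenos (0.987), and to Nars, an asparaginyl-tRNA synthetase gene (0.984). Asns was nearest to Lars, a leucyl-tRNA synthetase gene (0.990), and had Slc7a5 in its nearest 3 (0.984). Sesn2 was nearest to App, the amyloid precursor gene (0.981), followed by Atf4 (0.975).

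CpG methylation around the start sites was read from 1 control and 1 ND1 bisulfite library, whose labels give no day. The library called ND1 here is titled iN, and the control library is titled Microglia. The files hold fractions without read counts, so depth is unknown and no test or interval is given. Within 500 bases of the start site, 9 of 10 members had a mean methylation of at most 2.10% in both libraries, over 45 to 80 CpG positions each. Chac1 had the highest mean, 7.08% in the control and 7.67% in the ND1 library over 63 positions, 6 of which were at 20% or more in each. The next highest were Trib3, at 2.07 and 1.91%, and Herpud1, at 2.05 and 2.10%. Over 22919 start sites with at least 10 positions in both libraries the median was 5.59% in the control and 5.61% in the ND1 library. Of these, 56.9% were under 10% in each library, as were all 10 members. The share at 2.10% or less was not taken. Within 1000 bases the members' median was 4.36% in both libraries. Means there were 14.7 and 15.8% for Chac1, 11 and 10.8% for Trib3, 10.6 and 9.74% for Asns and 8.06 and 7.86% for Herpud1. Ddit3, which fell most among the members in ND1 against control cells at day 7, was at 0.798 and 0.824%. Asns, which was higher in ND1 cells, was at 1.57 and 1.49%.

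**Figure D5:**
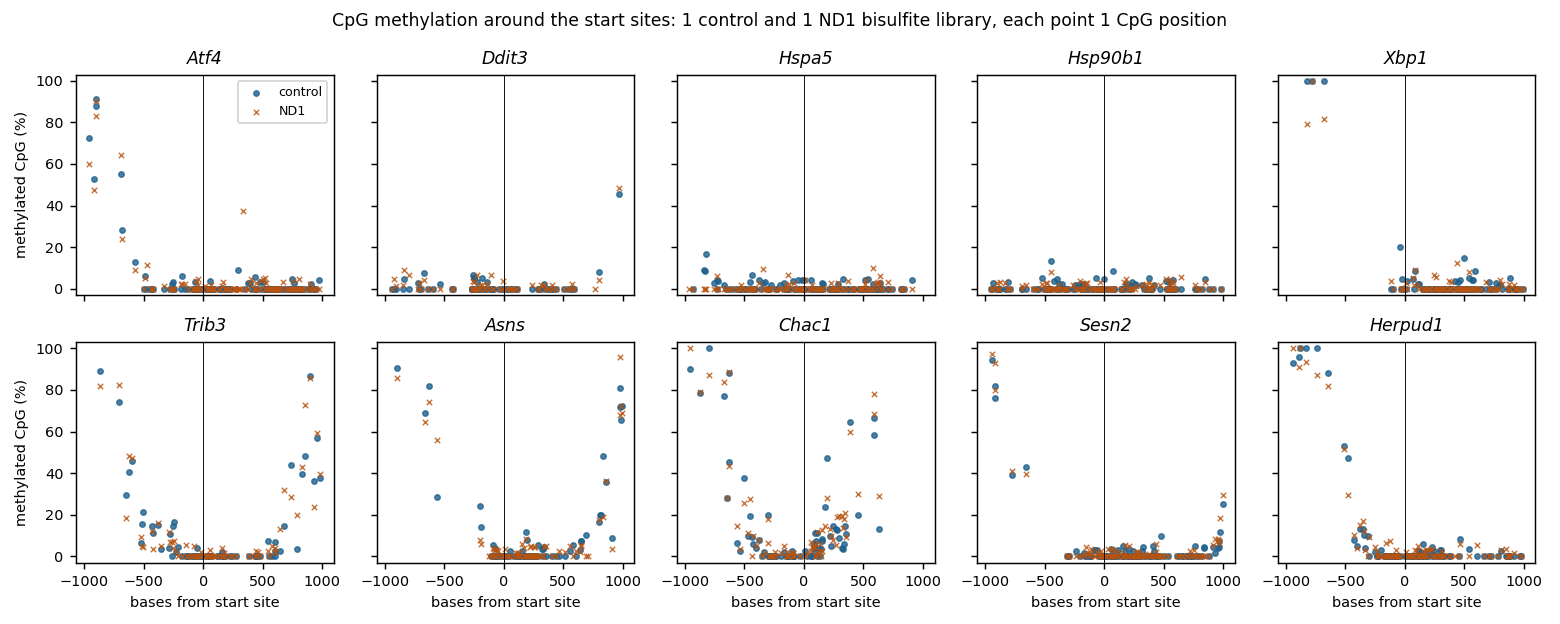
Methylated percent of each CpG position (y axis) by distance from the start site in bases (x axis, up to 1000 on each side) for the 10 genes; circles are the control and crosses the ND1 bisulfite library, 1 of each. Within 500 bases of the start site 9 genes have means of at most 2.10%, and Chac1 has 6 positions at 20% or more in each library. The share of all start sites at 2.10% or less was not taken.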

How the data were processed

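Per the submitters' processing notes, the RNA processing used mm10 and named Cufflinks, Cuffdiff, Bowtie2 and TopHat, without versions, and gene-level FPKM values were deposited. The bisulfite libraries were made by post-bisulfite adaptor tagging per the labels' protocols, and a methylated fraction per CpG position was deposited by the authors. How bisulfite reads were aligned and called is not given in the sources used here. Chromatin immunoprecipitation samples (10) were not analysed here.

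FPKM values were fitted as log2(FPKM + 1) with limma 3.58.1 in R 4.3.3, with 5 group means, 10 residual degrees of freedom, an intensity trend and no replicate block, over 13602 genes that reached 1 FPKM in 3 or more libraries. Called genes had an adjusted p below 0.05 and a log2 change of 1 or more. The fold change on this scale understates changes of weakly expressed genes. The members, the lists and the removal of an ND1 day 7 share were chosen with earlier results of these data known. Named beside all members were, per list and comparison, at most 2 called genes with the largest rise and 2 with the largest fall, and per member the 3 genes of highest r, of which the text gives some. Element II and the XBP1-type element were added after the files were seen. Neuron-high genes, without Neurod1 and small RNA genes, were those whose mean in neurons was 20 times the control day 7 mean or more, with 10 FPKM or more in both neurons and ND1 day 7 cells and a value above 0 in each of those libraries and in ND1 day 2. Control-high genes reached 50 FPKM in control day 7, kept 1% or less of that in neurons and had no 0 in control or ND1 libraries of day 7. Alternatives covered the pseudocount, filter, scaling, trend, groups fitted, block, fold threshold and each left-out library.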

Additional observations from a re-analysis of the deposited data

Results flagged for a closer look

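The ND1 effect on 4 of 10 members differed between day 7 and day 2 by the interaction term in limma, 2 higher and 2 lower. These counts were near the shares of all tested genes, 20.5% higher and 20.8% lower. The difference was 2.24 for Asns and 1.59 for Chac1, both higher at day 7, and -2.51 for Ddit3 and -1.43 for Sesn2, both lower at day 7 (log2 scale). All 3 libraries of each ND1 group lay on the same side of the matching control libraries for these genes.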

How the results depend on the processing

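Counts of called members were recomputed under each alternative. Dropping the fold threshold moved them most. It gave 9 lower members for ND1 against control at day 2 in place of 0, 8 lower at day 7 in place of 4, 6 lower for the difference between days in place of 2, 1 higher for control and 2 higher for ND1 cells between days in place of 0, and 8 higher and 2 lower for neurons against control in place of 4 and 1. Over all genes, calls at day 2 went from 1237 higher and 84 lower to 98 and 36 with the ND1 day 7 share removed, 1668 and 50 with equal FPKM sums, 817 and 159 with quantile normalization, and 2367 and 157 with a pseudocount of 0.1. With equal FPKM sums, calls at day 7 went from 3497 and 3332 to 5433 and 2440, the difference between days from 2790 and 2826 to 4729 and 2343, ND1 days from 3075 and 2867 to 4758 and 2464, and neurons against control from 3824 and 3436 to 5579 and 2656. A pseudocount of 0.1 took control days from 531 and 516 to 1115 and 777, and ND1 day 7 against neurons from 991 and 849 to 1737 and 1192. Quantile normalization left 1 member higher at day 7 in place of 2. Equal FPKM sums gave 7 higher in neurons in place of 4. The other member counts stayed within 1.5 times. All-gene shares with no fold threshold stand beside the members' counts above. Libraries of equal number shared only that number: 2 of 30 such pairs had an r over 0.1 between their deviations from the group means (-0.226 to 0.161). With the replicate block the counts were those of the fit without it, for example 8 lower for ND1 day 7 against neurons. Without 1 library in turn, that count was 7 to 8, and no other count changed.

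Signs of member values that had not passed turned as follows. Equal FPKM sums turned Herpud1 at day 2 (0.12) and between ND1 days (0.04), Hsp90b1 (0.29) and Xbp1 (0.25) at day 7, Atf4 (0.15), Hspa5 (0.02) and Hsp90b1 (0.40) in the difference between days, and Trib3 in neurons (0.34). Quantile normalization turned Herpud1 at day 2 (0.04) and Hsp90b1 at day 7 (0.00) and in the difference (0.12). Removing the ND1 day 7 share turned Herpud1 at day 2 (0.02). It also turned Trib2 at day 2, which had been called at 1.90, to -0.16. Hsp90b1 between ND1 days ranged from -0.01 to 0.01 without 1 library. The cause of these turns was not tested. A window of 1000 bases on each side moved the members' median methylation to 4.36% in both libraries. Depth behind the methylation values is unknown.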
